A study of Mus musculus with 8 samples.

Results

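Levels of 8 transcripts of the extracellular matrix, the cytoskeleton and the cell surface were followed across 8 libraries of dendritic cells sorted from mouse tumours. The genes Sparc, Bgn, Ltbp4, Col6a1, Cald1, Map1b, Mpzl2 and Cav1 were chosen by their counts, out of 24369 gene symbols, because these stood higher in EGFP-positive than in EGFP-negative libraries. All 8 had counts in the table. They were picked as candidates for RNA of tumour or stromal cells carried into the sorted fractions. No library of such cells was among the 8, so their source was not tested. The values of the EGFP comparison chose them, so that comparison is given for them as a description with no test.

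The cells came from MC38-EGFP tumours, which are grown from a mouse colon carcinoma line that carries enhanced green fluorescent protein (EGFP), in wild-type (WT) mice. Conventional dendritic cells were sorted as cDC1, the subset specialised in cross-presentation, or as cDC2, and each subset was divided by its EGFP signal. The 4 groups were thus the EGFP-negative and EGFP-positive fractions of each subset, with 2 libraries each, and no drug treatment, age or time is attached to any of them. The labels do not say whether the replicates of a group came from separate mice, so p-values measure only the spread between these libraries, which may be technical. The cell type entry of all 8 samples names colon cancer, not a dendritic cell, so the groups rest on the sample titles. A transcript of EGFP itself was not analysed here.

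As background, connective tissue is built by fibroblasts and related mesenchymal cells, which secrete collagens, proteoglycans and the glycoproteins that organise them. Cells that adhere to this matrix carry actin stress fibres, microtubule networks and caveolae, the small flask-shaped pits of the plasma membrane. Dendritic cells arise from bone marrow progenitors, move through tissue as single cells and take up debris of dying tumour cells, and matrix production is not a function they are known for.

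Totals ranged from 17869441 to 22195681 counts per library, of which the ribosomal RNA precursor Rn45s took 19.4% to 35.6%. Levels are given as CPM, read counts brought to a common library size by the TMM method, and 3 counts in a single library correspond to 0.131 to 0.211 CPM. Replicates correlated across 11394 genes, which are not independent replicates, at r = 0.629 in EGFP-positive cDC1 and at 0.850 to 0.898 in the other 3 groups. The EGFP-positive cDC1 replicates thus stood apart from each other, and results are also given without replicate 1. Xcr1, the chemokine receptor that marks cDC1, stood at 103 to 331 CPM in the 4 cDC1 libraries, against 0.0890 to 5.31 CPM in those of cDC2. In the cDC2 libraries the dendritic cell genes Flt3 and Zbtb46 reached 10.8 and 1.04 CPM, against at least 67.2 and 10.1 CPM in those of cDC1. Their class II gene H2-Aa was at 3070 to 8562 CPM, the integrin gene Itgax at 51.9 to 82.6 CPM and a list of 7 cDC2 genes at 894 to 946 CPM in sum. The macrophage complement gene C1qb was at 1574 to 3800 CPM there, and cDC2 names the gate in these results.

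Promoter windows from RefSeq (GRCm38.p6), which run from 250 bases before to 50 bases after a transcript start, were found for 7 of the 8 genes, in 11 windows. The windows of Bgn and Col6a1 are shown because their levels followed each other closely, that of Sparc because it reached the highest level, and that of Cav1 because its pattern differed most. Capitals mark matches on either strand to any of 5 motifs that were searched. These were AP-1 (TGANTCA), TEAD (GGAATG), Sp1 (GGGCGG), the TATA box (TATAAA) and an E-box (CAGGTG). Matches to different motifs do not overlap in the windows shown. The Bgn window lies at chrX:73483351-73483650 on the plus strand, that of Col6a1 at chr10:76725995-76726294 on the minus strand, that of Sparc at chr11:55420031-55420330 on the minus strand and that of Cav1 at chr6:17306085-17306384 on the plus strand.
Bgn: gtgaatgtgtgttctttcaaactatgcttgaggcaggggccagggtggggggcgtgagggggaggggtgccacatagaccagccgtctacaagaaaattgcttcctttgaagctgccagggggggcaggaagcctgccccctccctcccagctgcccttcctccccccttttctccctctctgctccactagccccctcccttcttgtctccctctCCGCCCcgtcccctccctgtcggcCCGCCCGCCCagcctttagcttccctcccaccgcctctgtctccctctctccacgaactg
Col6a1: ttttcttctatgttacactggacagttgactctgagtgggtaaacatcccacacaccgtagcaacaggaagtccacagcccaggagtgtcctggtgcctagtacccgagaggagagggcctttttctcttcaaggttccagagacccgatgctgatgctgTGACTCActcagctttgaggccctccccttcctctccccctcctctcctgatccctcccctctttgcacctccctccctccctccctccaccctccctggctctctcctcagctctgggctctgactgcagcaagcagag
Sparc: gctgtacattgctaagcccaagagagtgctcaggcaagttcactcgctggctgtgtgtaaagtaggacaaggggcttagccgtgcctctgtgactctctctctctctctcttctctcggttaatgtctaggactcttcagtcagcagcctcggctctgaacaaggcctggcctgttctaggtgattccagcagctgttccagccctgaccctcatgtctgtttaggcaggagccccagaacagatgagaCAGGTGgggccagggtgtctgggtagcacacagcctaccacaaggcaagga
Cav1: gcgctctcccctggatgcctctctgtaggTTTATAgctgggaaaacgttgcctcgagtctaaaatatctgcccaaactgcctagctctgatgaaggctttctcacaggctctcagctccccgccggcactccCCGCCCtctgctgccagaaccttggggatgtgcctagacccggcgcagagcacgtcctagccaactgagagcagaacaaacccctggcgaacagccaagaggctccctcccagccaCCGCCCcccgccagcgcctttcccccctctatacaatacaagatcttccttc
The capitals are 3 Sp1 matches in Bgn, of which the last 2 share bases, 1 AP-1 match in Col6a1, 1 E-box in Sparc, and 1 TATA box and 2 Sp1 matches in Cav1. Over all windows of the 7 genes, Sp1 was present in 5 genes (Bgn, Cald1, Cav1, Ltbp4 and Map1b), against 35.7% of 32851 promoter windows of the same length. The TATA box was present in 3 (Cald1, Cav1 and Map1b), against 13.6%, and the E-box in 3 (Cav1, Ltbp4 and Sparc), against 20.2%. AP-1 was present in 2 (Cald1 and Col6a1), against 7.81%, and TEAD in 1 (Cald1), against 14.7%. Several genes have more than 1 window, which raises the chance of a match for them. No motif was found in all 7 genes.

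Sparc encodes osteonectin, a secreted collagen-binding glycoprotein of remodelling matrix, and lies on chromosome 11 (GRCm38, 55394500 to 55423183, minus strand). In cDC1, with replicate 1 before replicate 2 here and for each gene that follows, it was at 4.67 and 3.496 CPM in the EGFP-negative libraries and at 674 and 0.140 CPM in the EGFP-positive ones. In cDC2 the corresponding levels were 1.51 and 0 CPM, then 0.0521 and 126 CPM. One replicate of each EGFP-positive group was thus high, and the other held 2 counts or 1 count, below every EGFP-negative cDC1 library. The ratio of mean levels, EGFP-positive over EGFP-negative, was 82.6 in cDC1 (337 ± 477 against 4.08 ± 0.833 CPM, SD, n = 2) and 83.6 in cDC2 (63.1 ± 89.2 against 0.754 ± 1.07 CPM). The groups overlapped in both subsets. Without EGFP-positive cDC1 replicate 1 the fitted log2 fold change in cDC1 was −4.80 in place of 6.37, and without EGFP-positive cDC2 replicate 2 that in cDC2 was −3.69 in place of 6.40.

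Bgn encodes biglycan, a small leucine-rich proteoglycan that binds collagen and TGF-beta, and lies on chromosome X (73483602 to 73495933, plus strand). The cDC1 libraries held 0.0935 and 0.140 CPM when EGFP-negative and 269 and 21.4 CPM when EGFP-positive. The cDC2 libraries held 0.162 and 0.0890 CPM, then 1.61 and 41.6 CPM. All 4 EGFP-positive libraries were above all 4 EGFP-negative libraries, where Bgn never exceeded 3 counts. The ratio of means was 1247 in cDC1 (145 ± 175 against 0.117 ± 0.0328 CPM) and 173 in cDC2 (21.6 ± 28.3 against 0.125 ± 0.0514 CPM). The EGFP-positive replicates differed from each other by 12.6 times in cDC1 and 25.8 times in cDC2. Without the higher of them the fitted log2 fold change of Bgn was 7.45 in place of 10.21 in cDC1 and 3.64 in place of 7.38 in cDC2.

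Ltbp4 encodes a latent TGF-beta binding protein that anchors the growth factor in microfibrils and takes part in elastic fibre assembly (chromosome 7, 27305136 to 27337692, minus strand). In cDC1 its level was 0 and 0.0466 CPM without EGFP and 142 and 6.25 CPM with it. In cDC2 it was 0 and 0.0445 CPM without EGFP and 1.61 and 55.7 CPM with it. Every EGFP-positive library was above every EGFP-negative library, and the latter held 0 or 1 count. Per count, the ratio was 3848 in cDC1 and 1202 in cDC2. Ratios per count pool the reads of both replicates, which for EGFP-positive Ltbp4 differed by 22.7 times in cDC1 and 34.5 times in cDC2. They are given without an interval, because reads are not replicates and this contrast chose the genes. Without EGFP-positive cDC1 replicate 1 the fitted log2 fold change of Ltbp4 in cDC1 was 7.72 in place of 11.29, and without EGFP-positive cDC2 replicate 2 that in cDC2 was 5.76 in place of 9.90.

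Col6a1 encodes the alpha-1 chain of collagen VI, a beaded-filament collagen of the cell surroundings (chromosome 10, 76708792 to 76726168, minus strand). The cDC1 libraries held 0.0935 and 0 CPM when EGFP-negative and 176 and 9.90 CPM when EGFP-positive. The cDC2 libraries held 0 and 0 CPM, then 0 and 8.67 CPM. Both EGFP-positive cDC1 libraries were above the EGFP-negative ones, whereas in cDC2 a single EGFP-positive library carried all the counts. The ratio was 2406 per count in cDC1, and the mean of EGFP-positive cDC2 was at least 59.2-fold higher than 3 counts over the EGFP-negative group. Without EGFP-positive cDC1 replicate 1 the fitted log2 fold change of Col6a1 in cDC1 was 7.55 in place of 10.78, and without EGFP-positive cDC2 replicate 2 no counts remained in cDC2.

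Cald1 encodes caldesmon, an actin- and calmodulin-binding protein of smooth muscle and stress fibres (chromosome 6, 34598500 to 34775473, plus strand). In cDC1 its level was 0 and 0 CPM without EGFP and 99.3 and 3.79 CPM with it. In cDC2 it was 0.0539 and 1.11 CPM without EGFP and 2.39 and 100.4 CPM with it. It was the only one of the 8 whose highest library was EGFP-positive cDC2 replicate 2, and the 2 high libraries were close to each other. All 4 EGFP-positive libraries were above the EGFP-negative ones. Mean levels were 51.6 ± 67.6 CPM in EGFP-positive cDC1, at least 736-fold higher than 3 counts over the EGFP-negative group. In cDC2 the ratio was 88.1 (51.4 ± 69.3 against 0.583 ± 0.749 CPM). The fitted log2 fold change of Cald1 was 9.22 in place of 13.01 in cDC1, and 2.02 in place of 6.43 in cDC2, without the higher EGFP-positive library of each.

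Map1b encodes a microtubule-associated protein best known from growing axons (chromosome 13, 99421446 to 99516540, minus strand). The cDC1 libraries held 0.140 and 0 CPM when EGFP-negative and 93.1 and 1.12 CPM when EGFP-positive. The cDC2 libraries held 0.0539 and 0 CPM, then 0.156 and 21.2 CPM. Each EGFP-positive library was above each EGFP-negative library, but EGFP-positive cDC2 replicate 1 held 3 counts, as many as EGFP-negative cDC1 replicate 1. The ratio per count was 825 in cDC1 and 450 in cDC2. These rest on single libraries: the fitted log2 fold change of Map1b was 3.89 in place of 9.27 without EGFP-positive cDC1 replicate 1, and 2.35 in place of 8.40 in cDC2 without EGFP-positive cDC2 replicate 2.

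Mpzl2 encodes an immunoglobulin-domain adhesion protein of epithelia and thymic stroma (chromosome 9, 45039799 to 45054015, plus strand). It had 0 counts in all 4 EGFP-negative libraries, 15.8 and 67.2 CPM in EGFP-positive cDC1, and 0.364 and 1.04 CPM in EGFP-positive cDC2. Its order in EGFP-positive cDC1 was the opposite of that of the other 7, replicate 2 being the higher one. The mean of EGFP-positive cDC1, 41.5 ± 36.4 CPM, was at least 592.7-fold higher than 3 counts over the EGFP-negative group. That of EGFP-positive cDC2, 0.702 ± 0.478 CPM, was at least 9.60-fold higher. Mpzl2 shares 2138 exonic bases with the opposite-strand gene Gm48840, and the use of strand in counting is not given, so reads of the pair cannot be told apart.

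Cav1 encodes caveolin-1, the main coat protein of caveolae, abundant in endothelial cells, adipocytes and fibroblasts (chromosome 6, 17306335 to 17341452, plus strand). In cDC1 its level was 0 and 5.92 CPM without EGFP and 177 and 0.0702 CPM with it. In cDC2 it was 50.2 and 10.7 CPM without EGFP and 17.6 and 32.8 CPM with it. It was the only one of the 8 above 10 CPM in both EGFP-negative cDC2 libraries, and EGFP-positive and EGFP-negative levels overlapped in both subsets. The ratio of means was 29.9 in cDC1 (88.6 ± 125 against 2.96 ± 4.19 CPM) and 0.828 in cDC2 (25.2 ± 10.7 against 30.5 ± 27.9 CPM). Without EGFP-positive cDC1 replicate 1 the fitted log2 fold change in cDC1 was −5.27 in place of 4.90.

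**Figure D1:**
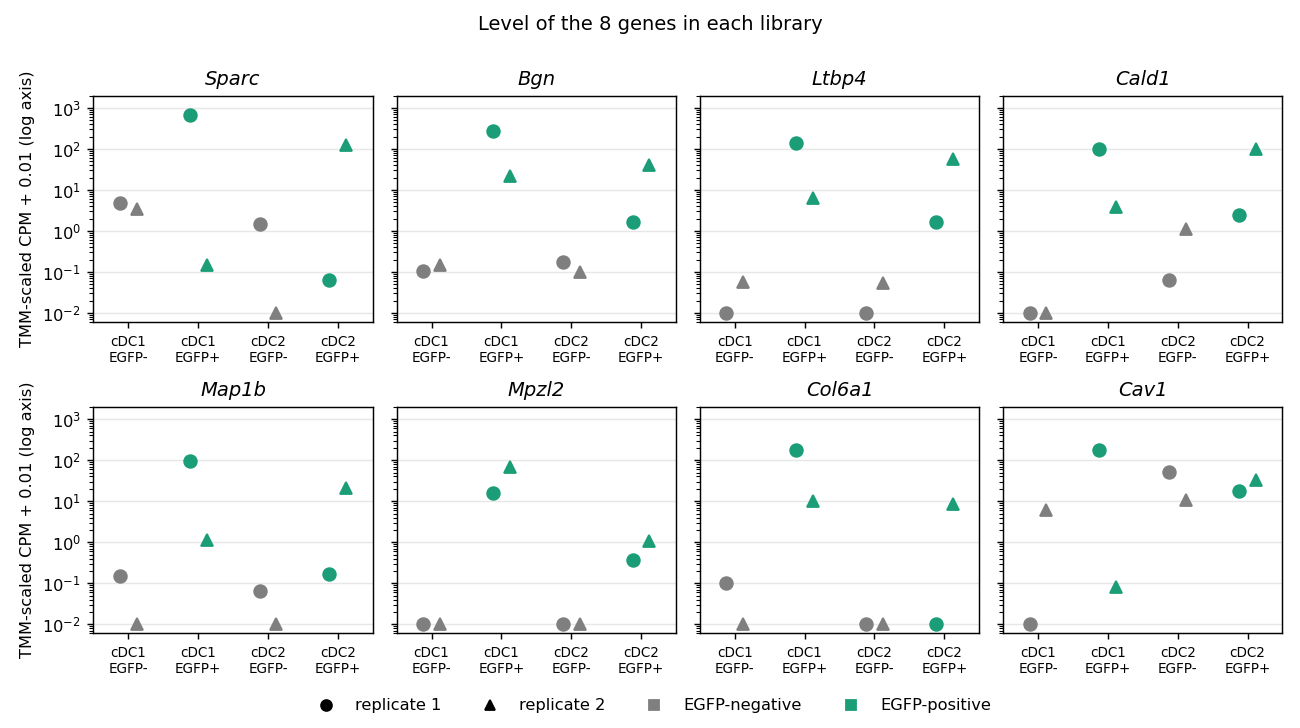
TMM-scaled CPM (log axis, 0.01 added) of the 8 genes in the 8 libraries, 1 panel per gene. Circles are replicate 1, triangles replicate 2, grey EGFP-negative and green EGFP-positive libraries. EGFP-positive cDC1 replicate 1 is the highest library for 6 of the 8 genes, while Mpzl2 is highest in EGFP-positive cDC1 replicate 2 and Cald1 in EGFP-positive cDC2 replicate 2.

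Most of the 8 genes shared an uneven distribution within the EGFP-positive libraries, which Mpzl2 and Cav1 followed only in part. Between the EGFP-positive cDC2 replicates Mpzl2 differed by 2.85 times and Cav1 by 1.86 times. The summed level of the 8 genes was 5.001 and 9.60 CPM in the EGFP-negative and 1647 and 110 CPM in the EGFP-positive replicates of cDC1. In cDC2 these sums were 52.0 and 11.97 CPM, then 23.8 and 388 CPM. EGFP-positive cDC2 replicate 1 was thus below EGFP-negative cDC2 replicate 1 in this sum, of which Cav1 made up most. At least 10 counts were found for 8 of the 8 genes in EGFP-positive cDC1 replicate 1 and EGFP-positive cDC2 replicate 2, for 6 in EGFP-positive cDC1 replicate 2, for 4 in EGFP-positive cDC2 replicate 1, and for 1 or 2 in the EGFP-negative libraries. In bulk libraries a larger number of cells that express a gene and more of its RNA per cell cannot be told apart.

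EGFP-positive cDC1 replicate 1 was the highest of the 8 libraries for 6 of the 8 genes, and for 17.9% of all 11394 genes tested. It and EGFP-positive cDC2 replicate 2 were the highest pair for 5 of the 8 (Sparc, Bgn, Ltbp4, Cald1 and Map1b), and for 6.61% of all genes tested. The share of a gene's summed CPM that lay in its 2 highest libraries was 98.8% for Sparc, 98.7% for Map1b, 98.3% for Mpzl2, 96.5% for Cald1, 96.1% for Ltbp4, 95.5% for Col6a1 and 93.0% for Bgn. For Cav1 it was 77.2%, and its second highest library was EGFP-negative cDC2 replicate 1. Since the genes were chosen for high EGFP-positive levels, these shares describe them and test nothing.

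Levels were compared between genes as CPM per kilobase of exonic length. In EGFP-positive cDC1 replicate 1 the order was Sparc at 178, Cav1 at 51.4, Bgn at 44.2, Col6a1 at 40.2, Ltbp4 at 21.96, Cald1 at 8.25, Map1b at 5.88 and Mpzl2 at 2.26 CPM per kilobase. In EGFP-positive cDC2 replicate 2 Sparc and Cav1 also led, at 33.3 and 9.53 CPM per kilobase, and Mpzl2 was again last at 0.149. EGFP-positive cDC1 replicate 2 had another order, led by Mpzl2 at 9.65, Bgn at 3.51 and Col6a1 at 2.26 CPM per kilobase. Sparc, at 0.0371, was next to last there. Single libraries carry no replicate error, so neighbours in these orders are not separated by a test.

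Across the 8 libraries, the Pearson correlation of log2(CPM + 1) between pairs of the 8 genes had a median of 0.788 over 28 pairs. The highest was 0.980, between Bgn and Ltbp4, followed by 0.979 between Ltbp4 and Cald1 and 0.973 between Bgn and Col6a1. The lowest was −0.092, between Mpzl2 and Cav1. Among the 15 pairs that hold neither Mpzl2 nor Cav1 it was 0.781 to 0.980, and among the 13 with either of them −0.092 to 0.757. The points of each correlation share the same libraries, and the same few libraries hold most of the counts, so the values are descriptions.

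**Figure D2:**
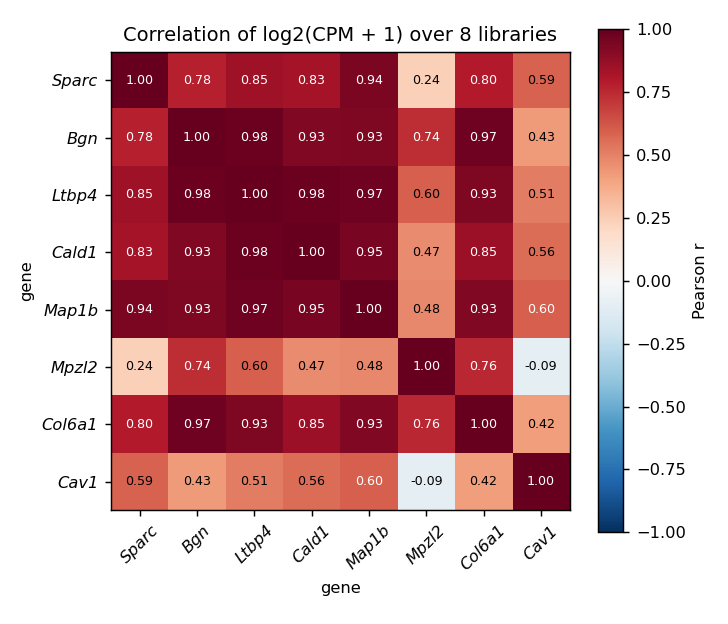
Pearson correlation of log2(CPM + 1) over 8 libraries for each pair of the 8 genes, with rows and columns in the same order and colour from low to high correlation. The 15 pairs without Mpzl2 and Cav1 lie between 0.781 and 0.980, and the 13 pairs with either of them between −0.092 and 0.757.

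The contrast that chose the genes was between EGFP-positive and EGFP-negative libraries. Within cDC1 6 of the 8 were higher in both EGFP-positive libraries than in both EGFP-negative ones, beside 11.5% of all genes tested, and within cDC2 5 of the 8, beside 22.6%. Over both subsets 5 of the 8 (Bgn, Ltbp4, Cald1, Map1b and Mpzl2) were higher in all 4 EGFP-positive than in all 4 EGFP-negative libraries, beside 0.965% of all genes tested. The fitted log2 fold change was above 0 for 8 of the 8 in cDC1, for 7 in cDC2, where Cav1 was at −0.27, and for 8 over both subsets. Its median was 10.49 in cDC1, 7.10 in cDC2 and 8.88 over both. With groups of 3 or fewer counts set to 3 counts, the medians of log2 ratios of mean CPM were 9.46, 6.42 and 9.21. The corresponding medians over all genes tested were −0.04, 0.08 and −0.05. All 8 passed the filter on low counts, and they could have passed it through their high libraries alone.

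By edgeR's quasi-likelihood test 0% of the 11394 genes passed an adjusted p of 0.05 for EGFP in cDC1, in cDC2 or over both, with 1452 (12.7%), 300 (2.63%) and 595 (5.22%) genes at an unadjusted p under 0.05. DESeq2 called 1319 (11.6%), 111 (0.974%) and 187 (1.64%) genes in the same comparisons. Without EGFP-positive cDC1 replicate 1, 7 of the 8 genes had a fitted log2 fold change above 0 over both subsets and their median was 7.19 in place of 8.88. In cDC1 the median was then 7.498 in place of 10.49, with 6 of the 8 above 0. In cDC2, without EGFP-positive cDC2 replicate 2, it was above 0 for 5 of the 8, with a median of 2.18 in place of 7.10.

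Levels of the 8 genes in the EGFP-positive libraries were also set side by side between the subsets. The same EGFP-positive values took part in choosing the genes, so this comparison too is given for them as a description with no test. Mpzl2 stood at 41.5 ± 36.4 against 0.702 ± 0.478 CPM (cDC1 against cDC2, n = 2 each), a fitted log2 fold change of 5.87 ± 1.78 (SE), with both cDC1 libraries above both cDC2 libraries. Col6a1 was the other gene without overlap, at 93.0 ± 118 against 4.33 ± 6.13 CPM, and its log2 fold change was 4.42 ± 2.49. Such separation was seen for 2 of the 8 genes, beside 13.7% of all genes tested.

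The remaining 6 genes overlapped between the EGFP-positive subsets. For Bgn the log2 fold change was 2.75 ± 1.51, for Sparc 2.42 ± 3.09 and for Map1b 2.14 ± 2.40. Those of Cav1 (1.81 ± 2.58) and Ltbp4 (1.37 ± 1.74) were, like those of Sparc and Map1b, smaller than their standard errors. For Cald1 it was 0.0047 ± 1.996, and that standard error leaves room for several-fold differences in either direction. Without EGFP-positive cDC1 replicate 1, 2 of the 8 fold changes were above 0 in place of 8, and their median was −2.72 in place of 2.28.

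Over both EGFP fractions, with EGFP as a term, Mpzl2 had the largest log2 fold change of the 8, 5.34 ± 1.77, followed by Col6a1 at 4.29 ± 1.88. Cald1, at −1.83, and Cav1, at −0.76, pointed towards cDC2. None of the 8 was higher in all 4 cDC1 than in all 4 cDC2 libraries, a separation seen for 3.96% of all genes tested.

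**Figure D3:**
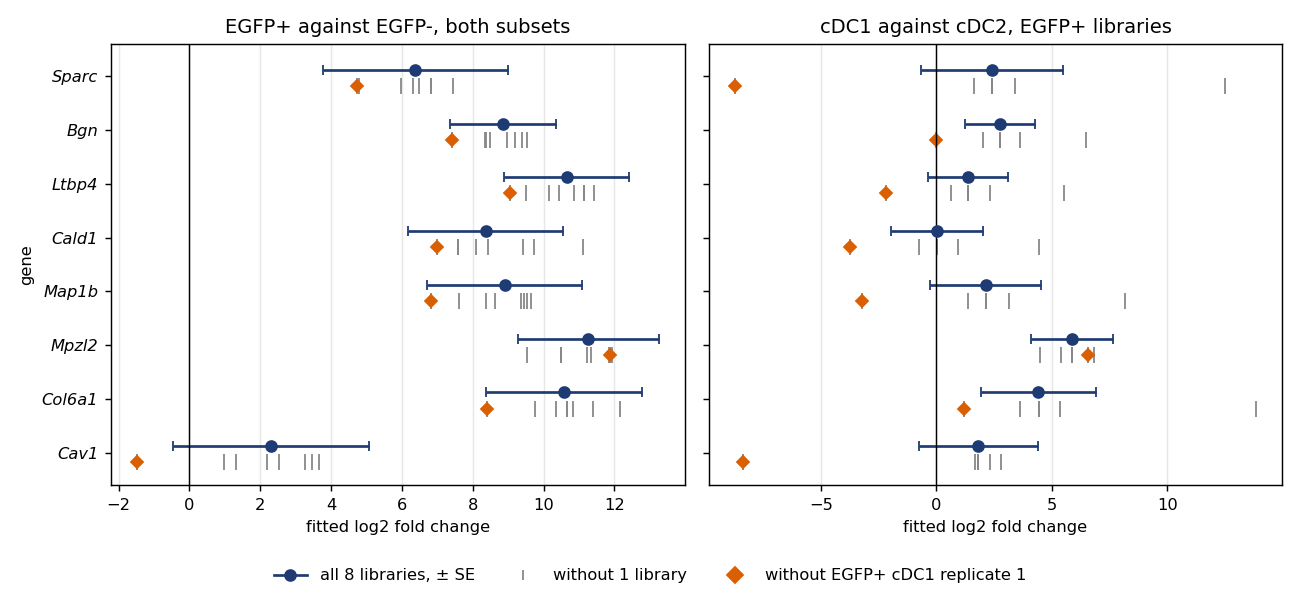
Fitted log2 fold changes of the 8 genes with all 8 libraries (points, bars of 1 SE) and without 1 library at a time (ticks), 1 panel per comparison. Orange diamonds mark the fit without EGFP-positive cDC1 replicate 1, in which the Sparc and Cav1 values of the subset comparison among EGFP-positive libraries move from 2.42 to −8.74 and from 1.81 to −8.36.

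Other genes of the same structures were read from 7 lists of 86 genes, of which 74 had a count and 51 were tested. By edgeR's quasi-likelihood test 0 of the 51 passed for EGFP over both subsets, beside 0% of all genes. At an unadjusted p under 0.05 there were 19, each higher in EGFP-positive libraries, and DESeq2 called 10, beside 5.22% and 1.64% of all genes. The median log2 fold change of the 51 was 2.41, with 40 above 0. In cDC1 0 passed, with 10 at an unadjusted p under 0.05 and 13 called by DESeq2, beside 12.7% and 11.6% of all genes. Of these, 9 of the 10 and 12 of the 13 were higher in EGFP-positive libraries. In cDC2 0 passed, with 2 and 3, beside 2.63% and 0.974%. There both genes at an unadjusted p under 0.05 were lower in EGFP-positive libraries, and the 3 called by DESeq2 were higher. The pair of EGFP-positive cDC1 replicate 1 and EGFP-positive cDC2 replicate 2 held the highest levels for 25 of the 51 (49.0%), beside 6.61% of all genes tested. The lists were chosen with results of these libraries known.

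Among the fibrillar collagen and fibroblast genes 10 were tested, 7 with a fold change above 0 over both subsets and a median of 5.49. The gelatinase gene Mmp2 was at 267 CPM in EGFP-positive cDC1 replicate 1, at 24.8 CPM in EGFP-positive cDC2 replicate 2, and at 7.81 CPM or less in the other 6 libraries (7.32 ± 2.46, adjusted p = 0.951). Col6a2 and Col6a3, which encode the partner chains of the Col6a1 product in collagen VI, were at 133 and 50.7 CPM in the former library and 5.94 and 16.04 CPM in the latter, and at 0.108 CPM or less elsewhere. Col3a1, the collagen III gene, was at 90.8 and 24.1 CPM in the same 2 libraries and at 0.890 CPM or less elsewhere. Fn1, the fibronectin gene, which macrophages also express, was distributed otherwise, at 0.131 CPM in EGFP-positive cDC1 replicate 1 and 1016 CPM in EGFP-negative cDC2 replicate 2.

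Of 4 matricellular and proteoglycan genes tested 3 were above 0, with a median of 2.44. The matricellular gene Cyr61 was at 177 and 30.2 CPM in the pair of high libraries and at 0.269 CPM or less in the other 6 (8.18 ± 2.51, adjusted p = 0.951). Microfibril and latent TGF-beta genes were above 0 in 8 of 9, with a median of 1.37. The fibrillin gene Fbn1 had counts in that pair alone, at 8.01 and 33.3 CPM. The fibulin gene Fbln2 was at 183 and 22.2 CPM there and at 4.68 CPM or less elsewhere. Basement membrane genes were above 0 in 9 of 10, with a median of 6.09, among them Col18a1 at 52.2 and 2.48 CPM in the pair and 0.364 CPM or less elsewhere.

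Caveolae genes other than Cav1 were above 0 in 4 of 5, with a median of 9.44. Prkcdbp, which encodes a cavin coat protein, was at 135 and 35.8 CPM in the pair and 0.0539 CPM or less elsewhere, and Ehd2, an ATPase of the caveolar neck, at 130 and 2.67 CPM. Cav2, whose product assembles with caveolin-1, had the levels of Cav1 in outline, at 56.0 CPM in EGFP-positive cDC1 replicate 1, 0.0702 CPM in its replicate 2 and 39.8 to 66.9 CPM in the 4 cDC2 libraries. Actin-linked contractile genes were above 0 in 5 of 6, with a median of 1.17, and microtubule-associated genes in 4 of 7, with a median of 1.01. Tropomyosin genes Tpm1 and Tpm2 were at 139 and 80.0 CPM in EGFP-positive cDC1 replicate 1, against 12.8 to 67.9 and 0 to 26.7 CPM in the other libraries. Tubb3, a tubulin gene of neurons and many tumour lines, was at 579 and 62.9 CPM in the pair and at 3.90 CPM or less elsewhere (6.80 ± 2.43, adjusted p = 0.951).

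In the subset comparisons 1 of these 51 genes passed, Cnn2, which encodes an actin-binding calponin, beside 0.228% of all genes tested among EGFP-positive libraries and 1.32% over both fractions. It was higher in cDC1 among EGFP-positive libraries (462 ± 53.0 against 33.8 ± 1.03 CPM, 3.77 ± 0.33, adjusted p = 0.0223 by edgeR) and over both fractions (3.22 ± 0.33, adjusted p = 0.00244). The call among EGFP-positive libraries was lost with the replicate number as a block (adjusted p = 0.0975), with the compared libraries alone (adjusted p = 0.264), and without any 1 of the 4 cDC2 libraries (adjusted p = 0.0562 to 0.132), with a log2 fold change of 3.77 to 3.89 in each. That over both fractions was kept with the block and without any 1 library. Its level in EGFP-positive libraries was 500 and 425 CPM in cDC1 and 33.1 and 34.6 CPM in cDC2. In EGFP-negative libraries it was 345 and 386 CPM in cDC1 and 67.3 and 48.2 CPM in cDC2. Cnn2 thus did not share the uneven replicate pattern of most of the 8 genes.

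**Figure D4:**
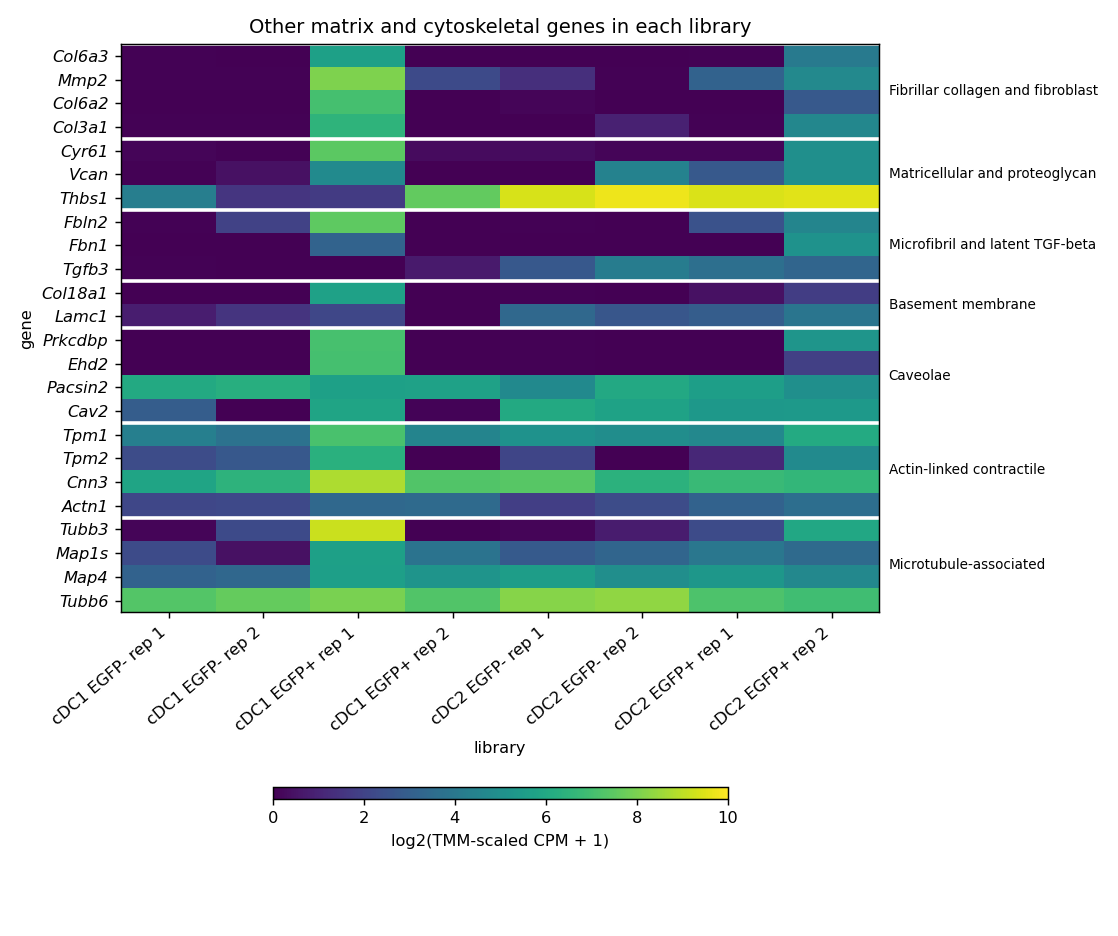
Levels of 24 genes of the 7 lists in the 8 libraries, as log2(CPM + 1) on a colour scale from 0 to 10. The columns of EGFP-positive cDC1 replicate 1 and EGFP-positive cDC2 replicate 2 are bright for genes such as Tubb3 (579 and 62.9 CPM) and Mmp2 (267 and 24.8 CPM) that are dark in most other columns.

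Among 5924 genes with a mean of at least 10 CPM, the 8 most like the mean profile of the 8 chosen genes over the 8 libraries were Serpinh1, Krt14, Mak16, Cyr61, Ccdc85b, Sox9, Pcolce and Prkcdbp, at r = 0.977 to 0.958. Serpinh1, the collagen chaperone, was at 120 and 29.2 CPM in EGFP-positive cDC1 replicate 1 and EGFP-positive cDC2 replicate 2, and at 4.56 CPM or less elsewhere. Pcolce, which enhances procollagen processing, was at 260 and 21.99 CPM in this pair, and the basal keratin gene Krt14 at 276 and 11.3 CPM. Krt14 was also at 8.49 CPM in EGFP-positive cDC1 replicate 2, and at 0.162 CPM or less in the remaining libraries. The transcription factor gene Sox9 was at 183 and 45.1 CPM in the pair and at 0.0702 CPM or less in the other libraries. With 0.1 CPM added in place of 1 before the logarithm, Krt14, Mak16, Cyr61 and Ccdc85b stayed among the closest 8, and Serpinh1, Sox9, Pcolce and Prkcdbp did not.

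Markers of other cells were read in the same libraries. In EGFP-positive cDC1 replicate 1, 10 of 20 fibroblast list genes were at 0 counts, among them Dcn, Lum, Fap, Pdgfra, Thy1 and Postn. Beside the genes given above, Col1a2 was at 40.7, the mesenchymal transcription factor gene Prrx1 at 9.63, Pdgfrb at 3.68 and Col1a1 at 1.23 CPM there. Col1a1 was higher in EGFP-negative cDC1, at 1.54 and 6.94 CPM. Pdgfrb was at 0.467 and 0 CPM in EGFP-negative cDC1. In cDC2 Pdgfrb was at 1.94 and 1.11 CPM without EGFP and at 0 and 0.248 CPM with it. The contractile genes Acta2, Tagln and Myl9 were at 0 in EGFP-positive cDC1 replicate 1. Of the other lists 10 of 12 epithelial genes were at 0 in that library, Epcam, Krt8 and Krt18 included. So were 9 of 10 endothelial genes, Cdh5 and Kdr included, and 6 of 7 pericyte genes. Krt19 was at 0.481 and Vwf at 7.88 CPM. The keratin gene Krt14, which is not in the epithelial list, was at 276 CPM in the same library. In EGFP-positive cDC2 replicate 2, 5 of 20 fibroblast genes were at 0, Dcn, Lum and Thy1 included, while Col1a2 was at 19.2, Col5a1 at 5.30, Prrx1 at 4.26, Twist1 at 1.88, Pdgfra at 1.78 and Fap at 0.545 CPM. There 9 of 12 epithelial genes, 6 of 10 endothelial genes and 4 of 7 pericyte genes were at 0, with Cdh1 at 5.596, Pecam1 at 11.5 and Cspg4 at 5.45 CPM. Prrx1 had 0 counts in the other 6 libraries, and Col1a2 was at 3.55 CPM or less in them. Col5a1, Twist1 and Pdgfra were at 0.0890 CPM or less outside EGFP-positive cDC2 replicate 2. Cspg4 had counts in both EGFP-positive cDC2 libraries alone. Fap was higher in EGFP-negative cDC2 replicate 1, at 1.02 CPM. Cdh1 was at 49.3 CPM in EGFP-positive cDC1 replicate 2 and 23.2 CPM in EGFP-negative cDC2 replicate 2. Pecam1 was at 16.7 to 20.3 CPM in the cDC2 libraries other than EGFP-positive replicate 2. The summed fibroblast list was at 6.31 to 1018 CPM in EGFP-negative and 240.3 to 757 CPM in EGFP-positive libraries. Fn1 made up 231 to 652 CPM of that sum in 3 of the EGFP-positive libraries and 0.131 of 597 CPM in EGFP-positive cDC1 replicate 1. The epithelial list summed to 0.377 to 28.8 and 0.525 to 49.3 CPM, the endothelial list to 12.6 to 24.3 and 7.88 to 35.7 CPM, and the pericyte list to 0 to 1.82 and 0 to 6.72 CPM. The part of any such cell in the levels of the 8 genes was not tested.

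Dendritic cell and macrophage genes also moved between these libraries. Macrophage genes summed to 381 CPM in EGFP-positive cDC1 replicate 1 and 11034 CPM in its replicate 2, against 2046 and 2532 CPM in EGFP-negative cDC1 and 17859 to 38451 CPM in the cDC2 libraries. Of the 11034 CPM, Lyz2 made up 8773 and Apoe 1543 CPM. Adgre1 went the other way, at 41.7 CPM in replicate 1 and 0.421 CPM in replicate 2. Mrc1 was at 0.175 and 0.211 CPM, Mertk at 0 in both, and the remaining list genes were higher in replicate 2. The cDC1 list summed to 1301 CPM in EGFP-positive cDC1 replicate 1, against 2106 to 2636 CPM in the other cDC1 libraries, and to 116 CPM in EGFP-positive cDC2 replicate 2, against 275 to 380 CPM in the other cDC2 libraries. Genes of the whole cDC lineage summed to 27823 CPM in the former, against 36293 to 40601 CPM, and to 6379 CPM in the latter, against 12658 to 17116 CPM. In both gates the library with the highest summed level of the 8 genes had the lowest sums of the cDC1 and shared cDC lists. The cDC2 list was at 915 CPM in EGFP-positive cDC2 replicate 2, against 894 to 946 CPM in the other cDC2 libraries. Single genes did not all follow these sums. In EGFP-positive cDC2 replicate 2 Zbtb46 was at 1.04 CPM, against 0.134 CPM or less in the other cDC2 libraries. H2-Aa and H2-Ab1, at 3070 and 3255 CPM, made up most of the cDC sum of that library. In EGFP-positive cDC1 replicate 1 Irf8 was at 418 CPM, against 1318 CPM in replicate 2. Xcr1, Cadm1 and Itgae were higher in replicate 1 than in replicate 2, and the other cDC1 list genes lower. Flt3 was at 67.2 and 67.9 CPM. H2-Aa and H2-Ab1, at 13219 and 14450 CPM in replicate 1, made up most of its cDC sum. The cDC2 list was at 32.9 and 396 CPM in EGFP-positive cDC1, 192 and 302 CPM in EGFP-negative cDC1 and 894 to 946 CPM in the cDC2 libraries. Neutrophil, T and NK cell, and B cell lists summed to at most 35.6, 41.6 and 13.9 CPM. Whether these differences bear on the levels of the 8 genes was not tested.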

How the data were processed

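RNA of 8 sorted libraries was sequenced after reverse transcription by a published low-input protocol, per the labels' protocols. The deposited table holds raw read counts per gene symbol, and 0 of its columns were left without a sample. Trimmomatic 0.39, STAR 2.7.5c, Cufflinks 2.2.1 and the mm10 build are named in the submitters' processing notes. Not given in the sources used here are the read counter, the annotation and the strand setting.

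Counts were analysed with edgeR 4.0.16 (R 4.3.3). Its low-count filter, applied by group, kept 11394 genes and was followed by TMM scaling, glmQLFit with robust estimation and glmQLFTest on all 8 libraries, and Benjamini-Hochberg adjustment over all genes tested (threshold 0.05). Contrasts within a subset or fraction came from a model of 4 group means, and those over both from additive subset and EGFP terms. DESeq2 1.42.0 and voom in limma 3.58.1 served as alternatives. The steps were tested on simulated data. A planned test of the 8 genes between the subsets is given as values only, since the EGFP-positive levels took part in their choice. Gene positions and exonic lengths are from GENCODE M21 (GRCm38). Against a group with 0 counts, folds were computed to a floor of 3 counts over the group.

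The members and the 17 gene lists were chosen with earlier results of these data known. Besides the 8 members, up to 4 genes of each list with a mean of at least 5 CPM and the smallest p for EGFP over both subsets were eligible to be named, and not all are described. Other genes named from the lists, such as Fn1, Cnn2, Col1a2, Prrx1 and the markers at 0 counts, were chosen after their values were seen. Of the listed symbols 5 were read under older names, such as Cyr61 and Prkcdbp, and Ly6g and Trac were not used. A common dispersion of 1.28 (biological coefficient of variation 1.13) limits the precision with 2 libraries per group.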

Additional observations from a re-analysis of the deposited data

Results flagged for a closer look

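The 16 sets of 4 libraries examined were 1 for each of the 8 genes in the EGFP-positive and in the EGFP-negative libraries. In 4 of them the gap of a library to its nearest neighbour, as a part of the whole range, was over Dixon's 95% critical value. That value is made for normal values of 1 population. Each set held CPM of both subsets, so no chance rate is given and the flags are descriptions. Bgn in EGFP-positive cDC1 replicate 1 (269 CPM) and Col6a1 in the same library (176 CPM) stood far above the other EGFP-positive libraries. Cald1 in EGFP-negative cDC2 replicate 2 (1.11 CPM) stood above the other EGFP-negative libraries. Col6a1 in EGFP-negative cDC1 replicate 1 (0.0935 CPM) did so too, but this value is 2 counts against 0 in the other libraries, below the limit that a count of 0 allows.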

How the results depend on the processing

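Counts of genes called by edgeR were 0, 0 and 0 for EGFP in cDC1, in cDC2 and over both, 26 for cDC1 against cDC2 among EGFP-positive libraries and 150 over both fractions. DESeq2 gave 1319, 111, 187, 1578 and 1160. Without a low-count filter EGFP in cDC1 gave 57 and the subset comparisons 153 and 236, and without robust estimation these were 12 and 99. Voom with quality weights gave 2 for EGFP in cDC2, 4 over both, and 11 and 846 for the subset comparisons. With the compared libraries alone the subset comparison among EGFP-positive libraries gave 0. Without both EGFP-positive cDC1 libraries, chosen after seeing the data, the subset comparison over both fractions gave 392. RLE scaling, removal of Rn45s and a filter of at least 10 CPM in 2 libraries moved no count by over 1.5 times. That filter left out Col6a1.

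With 1 library left out in turn, the count ranged from 0 to 1050 for EGFP in cDC1, from 1 to 1273 for the subsets among EGFP-positive libraries and from 50 to 277 over both fractions. It was 0 for EGFP in cDC2 and over both in each such fit. In the first of these comparisons 763 genes were called without EGFP-positive cDC1 replicate 1 and 1050 without replicate 2.

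Some log2 fold changes of the 8 genes turned direction when 1 library was left out. For EGFP in cDC1 the range was −4.80 to 7.37 for Sparc and −5.27 to 13.78 for Cav1, and in cDC2 −3.69 to 13.32 for Sparc and −0.996 to 1.23 for Cav1. For EGFP over both, Cav1 ranged from −1.48 to 3.66. Among EGFP-positive libraries the subset value ranged from −8.74 to 12.50 for Sparc, −0.0110 to 6.49 for Bgn, −2.19 to 5.52 for Ltbp4, −3.76 to 4.42 for Cald1, −3.24 to 8.18 for Map1b and −8.36 to 2.81 for Cav1. Over both fractions it ranged from −0.0550 to 2.30 for Bgn, −1.28 to 3.19 for Ltbp4, −0.44 to 4.02 for Map1b and −4.59 to 0.57 for Cav1. Without both EGFP-positive cDC1 libraries the subset value over both fractions was −0.0893 for Bgn and −0.0209 for Ltbp4, and the EGFP value of Cav1 was −0.27, which then rests on cDC2 alone. In the compared libraries alone Cald1 was at −0.0046 among EGFP-positive libraries. With voom Cav1 was at 0.12 for EGFP in cDC2 and −0.90 for the subsets among EGFP-positive libraries. Apart from the settings' own construction, the cause of these turns was not tested.

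Titles give libraries of 1 replicate number a shared code, whose meaning is not stated, so the numbers may mark a common source. Deviations from group means correlated at −0.224 to 0.041 over the 6 pairs of groups, and the numbers were not used as pairs. With a replicate block the subset comparisons gave 0 and 82 genes, Map1b turned to −0.72 among EGFP-positive libraries and Cav1 to 0.0661 for EGFP in cDC2. With the numbers of the EGFP-positive groups crossed, chosen after seeing the data, the former comparison gave 7 genes, and Cav1 there was at −0.47.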
